A study of Mus musculus with 6 samples.

Results

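The genes examined here are 41 members of the DNA replication and nucleotide supply machinery of the mouse, among the 36870 distinct symbols of the deposited table. They were taken by symbol, as genes of origin licensing, of the replisome and of deoxynucleotide (dNTP) supply, and not by a threshold on measured values. Earlier results of these data were known when they were chosen. Each symbol had 1 row in the table, and each reached the mean of 0.1 RPKM required for testing, with means between 2.27 RPKM (Orc1) and 196.8 RPKM (Pcna). RPKM divides a gene's reads by its length and by the library's mapped reads, so that levels of different genes can be set beside each other.

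RNA-seq was performed on cultured cells that the paper names BMMSCs (bone marrow mesenchymal stem cells). They were the adherent cells grown out of flushed bone marrow of C57BL/6 mice, at the passage labelled p2 (the paper's methods name passage 1). The 3 control libraries came from cells given a non-targeting siRNA according to the labels, which the RNA-seq methods call vehicle, and the other 3 libraries from cells given siRNAs against Tet1 and Tet2 together. Tet1 and Tet2 are dioxygenases that oxidise 5-methylcytosine in DNA. Age, time after transfection and whether libraries of a group came from separate animals or cultures are not given in the sources used here, so p-values measure only the spread between these libraries, which may be technical.

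DNA is copied once per cell cycle, in S phase. In G1 the origin recognition complex with Cdc6 and Cdt1 loads the MCM2-7 helicase onto origins, and in S phase Mcm10, Cdc45 and the GINS complex turn the loaded helicase into an active one. Primase and DNA polymerase alpha then start each strand, replication factor C loads the PCNA clamp, polymerases delta and epsilon extend, replication protein A covers single-stranded DNA, and Fen1 and Lig1 join the Okazaki fragments. Ribonucleotide reductase, thymidylate synthase, thymidine kinase and dUTPase supply the nucleotides, and chromatin assembly factor 1 (CAF-1) places histones on the new DNA. Transcription of many of these genes is known to be raised at the G1/S boundary by E2F factors.

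Tet2 stood at 2.57, 4.08 and 3.71 RPKM in control replicates 1, 2 and 3 and at 0.358, 0.238 and 0.202 RPKM in the siRNA replicates, whereas Tet1 was close to the lowest listed value of 0.001 RPKM in both groups (0.032 to 0.098 RPKM in control and 0.001 to 0.010 RPKM in siRNA libraries) and was not tested. The table gives no read totals. By an estimate from the steps between low values, the libraries held 32400000 to 38700000 reads, and the member with the fewest reads, Rpa3, then had at least 143 in each library, a counting error of at most 8.37%. The labelled cell type was set against marker lists. Macrophage markers were abundant in both groups, and in every library their sum exceeded that of the stromal markers, though the lists differ in length. Ptprc (CD45), for which the paper describes BMMSCs of control and Tet DKO mice as negative, had means of 52.6 RPKM in control and 53.0 RPKM in siRNA libraries. The control means of Cd68, Adgre1 and Itgam were 875, 305 and 97.2 RPKM. Of 10 macrophage markers, 5 were higher and 3 lower in siRNA libraries, with a summed level of 5566 to 7302 RPKM in control and 12441 to 15354 RPKM in siRNA libraries, mostly Lyz2. The call of Lyz2 was lost with quantile normalization (log2 fold change 0.056, adjusted p = 0.455 by limma). That scaling gives equal values to equal ranks, so it could show little change in a gene near the top of every library. Under median ratio scaling Lyz2 was higher (log2 fold change 1.46, adjusted p = 0.00135). The 3 lower were Fcgr1 (log2 fold change -1.93), Aif1 (-0.50) and Mrc1 (-0.27), and Csf1r, the macrophage growth factor receptor, was at 478 to 519 RPKM in control and 578 to 619 RPKM in siRNA libraries. Of 12 stromal markers, 10 were tested, 7 were lower and 1 (Vcam1) was higher, with a summed level of 972 to 1501 RPKM in control and 189 to 317 RPKM in siRNA libraries. The stromal markers Lepr and Thy1 were at or below 0.146 RPKM in every library. The other 10 had control means from 0.911 RPKM (Nt5e) to 488 RPKM (Col1a1), with Pdgfra at 9.92, Pdgfrb at 30.2 and Cxcl12 at 38.9 RPKM. Granulocyte markers summed to 1.87 to 2.23 RPKM in control and 9.26 to 16.2 RPKM in siRNA libraries, nearly all S100a8, with S100a9 listed at 0.001 RPKM throughout. Lists of T and B cell and erythroid markers each summed to at most 0.246 RPKM, and endothelial markers summed to 1.35 to 2.88 RPKM. The part of these markers in the results below was not tested, and in bulk RNA fewer cells of a type and less RNA per cell cannot be told apart.

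Transcripts of most of the replication genes were lower in Tet1/Tet2 siRNA libraries, by modest amounts. RNA levels do not measure DNA synthesis, and the paper reports that BMMSCs proliferated more after Tet1 and Tet2 knockdown. By limma on log2(RPKM + 1), with Benjamini-Hochberg adjustment over the 13266 genes tested, 28 of the 41 members (68.3%) were lower with an adjusted p under 0.05, beside 29.8% of all genes tested and 29.7% of the genes within the members' range of mean RPKM. No member was higher by limma, also at an unadjusted p under 0.05 (0 genes), beside 14.7% of all genes. Of the 41, 39 had a log2 fold change below 0, and the median was -0.32 (range -0.63 for Pola1 to 0.10 for Gins4), beside a median of -0.09 over all genes tested. The change stayed under a doubling or halving in every member. The study's thresholds, a fold change over 2 with an unadjusted p below 0.05, were applied to RPKM + 1 and the limma p, not to the authors' values. By them 0 members were altered, beside 6.58% of all genes. The added 1 RPKM leaves out some low genes whose mean RPKM changed more than 2-fold. Among the members the largest ratio of mean RPKM, control over siRNA, was 1.64 (Pola1). In 30 members (73.2%) every siRNA library lay below every control library, beside 35.9% of all genes. These 30 were the 28 called members with Gins1 and Prim2.

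**Figure D1:**
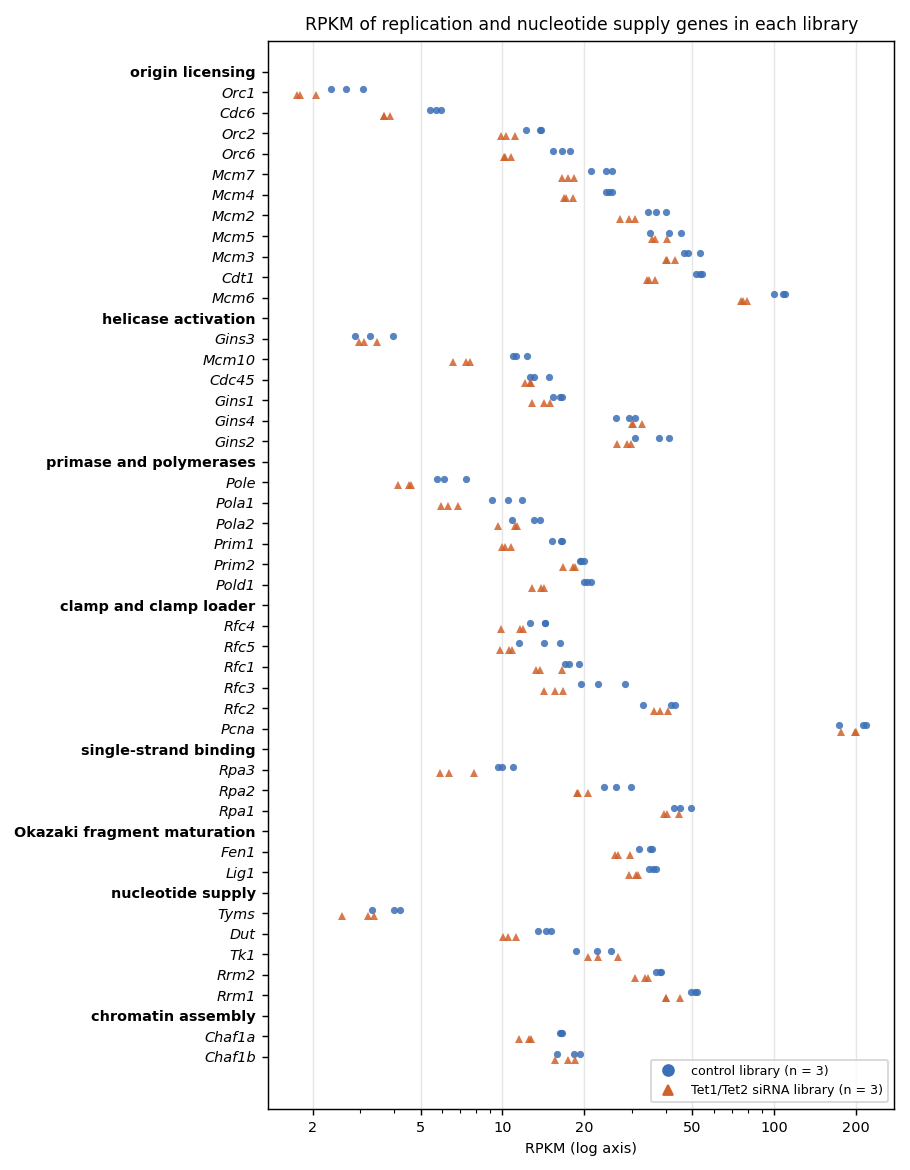
RPKM on a log axis of the 41 genes, grouped by role and ordered by the control mean, with 1 circle per control library (n = 3) and 1 triangle per Tet1/Tet2 siRNA library (n = 3). In 30 genes the 3 triangles lie to the left of the 3 circles, and the levels run from 2.27 RPKM for Orc1 to 196.8 RPKM for Pcna as means over the 6 libraries.

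How far zero is from the middle of all genes depends on how the libraries are scaled. The 10 most abundant rows took 10.6% to 11.8% of the summed RPKM in control libraries and 17.8% to 20.1% in siRNA libraries. With quantile normalization the median over all genes moved by 0.14 log2 units, from -0.09 to 0.06, and the split of calls over all genes went from 3952 lower and 1953 higher to 2627 lower and 3607 higher. With median ratio scaling it was 3105 lower and 2699 higher. Scaling each library to the same sum moved it the other way, to 4396 lower and 1529 higher, with a median over all genes of -0.15. The distance of the members from all genes moved less. Median ratio scaling and scaling to the same sum multiply each library by 1 factor, which shifts members and all genes almost alike. For these scalings a near-constant distance was therefore given in advance, and only quantile normalization could have changed it much. Their median lay 0.23 below that of all genes with the deposited scaling, 0.22 below it under median ratio scaling, 0.24 below it under quantile normalization and 0.25 below it with libraries scaled to the same sum, all in log2 units, and 35, 33, 36 and 35 of the 41 members lay below the median of all genes. The number of members called lower was 29 with scaling to the same sum, 20 under median ratio scaling and 18 under quantile normalization, where 1 member, Gins4, was called higher. Without the filter on low values, with 36870 rows tested, 13 members were called lower. In 11 members the call held in each of the 17 alternative fits that were run, and these were Orc6, Cdc6, Cdt1, Mcm4, Mcm6, Mcm10, Pola1, Prim1, Pold1, Dut and Chaf1a. The calls of Mcm2, Mcm7, Pole, Rpa2 and Rpa3 were lost in the fit without the filter and in no other (adjusted p between 0.0509 and 0.0707), and that of Rfc3 there and with gene-wise variance (0.123 and 0.0666).

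**Figure D2:**
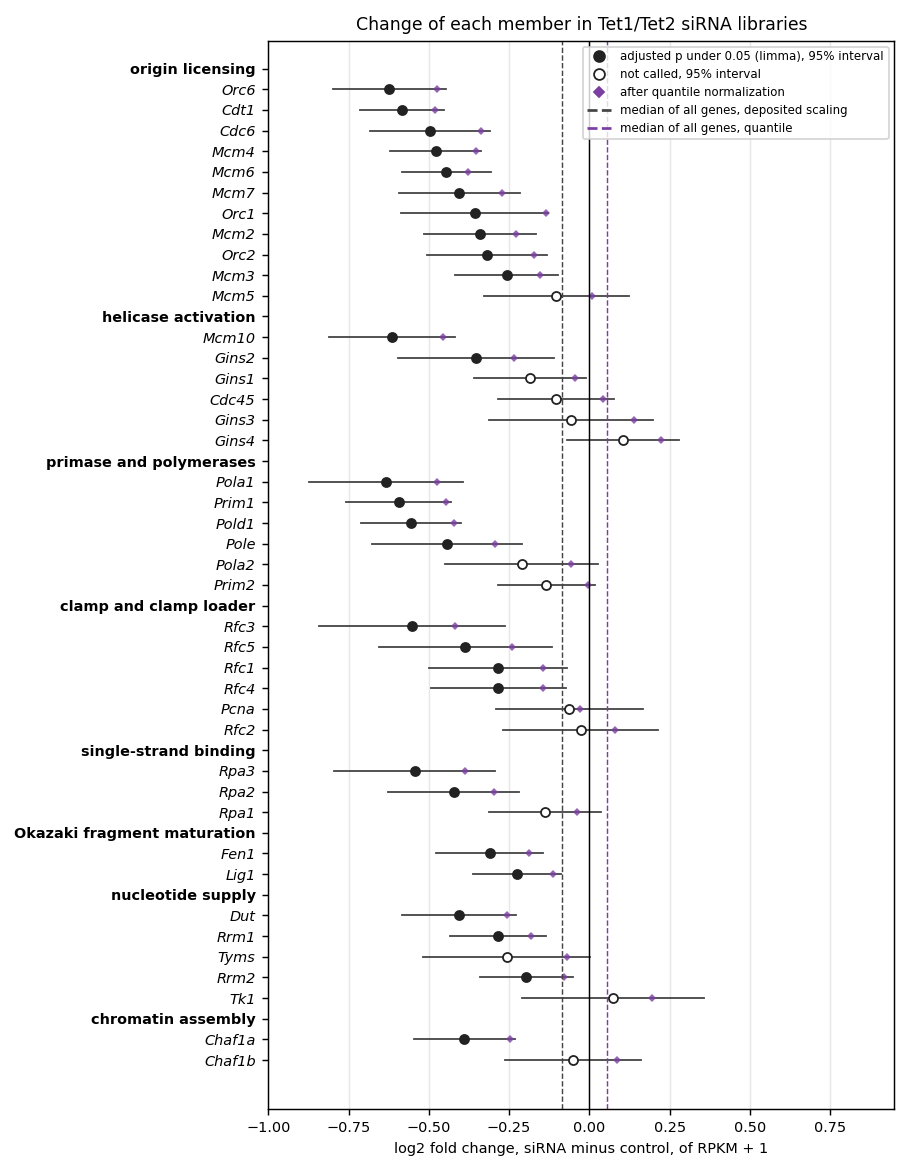
Log2 fold change (siRNA minus control, of RPKM + 1) of each gene by role, as circles with 95% intervals from limma, filled where the adjusted p was under 0.05, and diamonds for the same change after quantile normalization. The 28 filled circles lie left of zero, and the diamonds lie to the right of the circles, as does the quantile median of all genes (0.06) to the right of that with the deposited scaling (-0.09).

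Of the 11 genes of origin licensing, 10 were lower and Mcm5 did not pass the test, and the median change was -0.40 in log2 units. Their summed level was 353 to 389 RPKM in control and 272 to 292 RPKM in siRNA libraries. Orc6 (ENSMUSG00000031697.12, chr8:85299632-85308278, plus strand on GRCm38), the smallest subunit of the origin recognition complex, was at 17.7, 16.5 and 15.4 RPKM in control replicates 1 to 3 and at 10.1, 10.8 and 10.2 RPKM in siRNA replicates 1 to 3, and fell by 0.62 ± 0.076 (SE) on the log2 scale (adjusted p = 0.000326). Its control libraries all exceeded its siRNA libraries, and the mean fell by 37.3% of the control level. The loading factor Cdt1 (chr8:122568015-122573554, plus strand), which brings MCM2-7 to the origin and is destroyed once S phase has begun, had the lowest p of the members, and stood at 53.2, 51.4 and 54.3 RPKM in control and 34.1, 36.5 and 34.6 RPKM in siRNA libraries (fell by 0.58 ± 0.057 SE, adjusted p = 0.00011). Cdc6, the ATPase that works with Cdt1, went from 5.67, 5.93 and 5.40 RPKM to 3.85, 3.66 and 3.66 RPKM, a log2 fold change of -0.50 (adjusted p = 0.00151). In these 3 genes the gap between the groups was wider than the whole range of either group.

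Orc2, a core subunit of the origin recognition complex, was at 12.2, 13.7 and 13.9 RPKM in control and 9.91, 10.3 and 11.1 RPKM in siRNA libraries (log2 fold change -0.32, adjusted p = 0.013). Its ATPase subunit Orc1, the least abundant member, was at 2.65, 3.06 and 2.34 RPKM and 1.75, 1.80 and 2.06 RPKM (log2 fold change -0.36, adjusted p = 0.0198). The groups did not overlap in either gene, but both calls were lost with quantile normalization (adjusted p = 0.0823 for Orc2 and 0.299 for Orc1) and without control replicate 2, siRNA replicate 1 or siRNA replicate 2, where the adjusted p was between 0.0509 and 0.0756. The other members of the complex on the wider list are counted with that list.

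The 6 MCM2-7 genes encode the ring that unwinds DNA at the fork. The most abundant, Mcm6, was at 109.7, 107 and 99.7 RPKM in control and 75.6, 79.5 and 76.7 RPKM in siRNA libraries and fell by 0.45 ± 0.06 (SE) (adjusted p = 0.000554). Mcm4 was at 24.1, 24.6 and 25.3 RPKM and 16.9, 17.1 and 18.2 RPKM (log2 fold change -0.48, adjusted p = 0.000432), with little spread in either group. Mcm7 went from 25.3, 24.1 and 21.1 RPKM to 17.5, 18.4 and 16.6 RPKM (log2 fold change -0.40, adjusted p = 0.00456). These 3 subunits fell by 26.9%, 29.4% and 25.6% of their control means. Mcm2 was at 39.8, 36.9 and 34.4 RPKM and 27.1, 30.7 and 29.2 RPKM (log2 fold change -0.34, adjusted p = 0.00707). Mcm3 was at 53.5, 48.2 and 46.5 RPKM and 39.9, 43.1 and 40.3 RPKM (log2 fold change -0.26, adjusted p = 0.0178), and its call was lost with quantile normalization (adjusted p = 0.0681), under median ratio scaling (0.109) and without siRNA replicate 1 or 3 (0.0701 and 0.0526). Mcm5 differed from its partners, since its values of 45.3, 41.2 and 34.9 RPKM in control and 35.6, 40.3 and 36.5 RPKM in siRNA libraries overlapped (log2 fold change -0.10, 95% interval -0.33 to 0.12, adjusted p = 0.426). The interval of Mcm5 did not reach the fitted changes of Mcm6, Mcm4, Mcm7 and Mcm2, though the difference between subunits was not tested.

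Of the 6 genes of helicase activation, 2 were lower (Mcm10 and Gins2, 33.3%, beside 29.8% of all genes), 3 with the replicate numbers as a block and 1 under median ratio scaling or quantile normalization, and the median change was -0.14 in log2 units. Mcm10 (ENSMUSG00000026669.14, chr2:4989714-5012791, minus strand), which is needed for the helicase to leave the origin, was at 12.3, 10.9 and 11.2 RPKM in control and 7.31, 7.59 and 6.55 RPKM in siRNA libraries and fell by 0.61 ± 0.086 (SE) (adjusted p = 0.000668). The lowest of its control libraries stood far above the highest siRNA library. Gins2 was at 41.1, 37.8 and 30.7 RPKM and 28.7, 29.7 and 26.3 RPKM (log2 fold change -0.35, adjusted p = 0.0266), with control replicate 3 close to the siRNA libraries. The call of Gins2 was lost without any one of 5 libraries (adjusted p between 0.0525 and 0.0886), all but control replicate 3, and 67.3% of its annotated exon bases are shared with Gse1 on the opposite strand. The sources used here do not say whether counting used the strand, so reads of the pair may not be told apart. Gins1 did not overlap between groups (15.3, 16.3 and 16.5 RPKM against 12.9, 14.9 and 14.2 RPKM) but missed the threshold (adjusted p = 0.0816). Cdc45 was at 14.8, 13.1 and 12.7 RPKM and 12.7, 12.7 and 12.2 RPKM (adjusted p = 0.314), and Gins3 at 3.94, 2.86 and 3.27 RPKM and 3.46, 2.96 and 3.08 RPKM (adjusted p = 0.701). Both overlapped between groups. Gins4 (chr8:23226616-23237659, minus strand) had the highest log2 fold change of the 41 members in the fit of all libraries, with 30.8, 29.2 and 26.2 RPKM in control and 30.0, 32.6 and 30.1 RPKM in siRNA libraries (log2 fold change 0.10, 95% interval -0.07 to 0.28, adjusted p = 0.289), and with quantile normalization it was called higher (log2 fold change 0.22, adjusted p = 0.0319).

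Among primase and the replicative polymerases, 4 of 6 genes were lower, and the median change was -0.50 in log2 units. Pola1 (ENSMUSG00000006678.6, chrX:93304767-93632155, minus strand), the catalytic subunit of DNA polymerase alpha, had the largest fall of the members in the fit of all 6 libraries with the deposited scaling, and Cdt1, Mcm10 or Orc6 fell more under some alternatives. It was at 9.12, 10.5 and 11.8 RPKM in control and 5.93, 6.30 and 6.84 RPKM in siRNA libraries, a fall of 39.2% of the control mean (log2 fold change -0.63 ± 0.1 SE, adjusted p = 0.00157). Prim1, the catalytic subunit of primase (chr10:128015168-128030037, plus strand), was at 16.5, 16.6 and 15.2 RPKM and 10.2, 10.0 and 10.7 RPKM (log2 fold change -0.59, adjusted p = 0.000282). Both catalytic subunits of the complex that starts DNA strands thus fell with no overlap between groups. Pold1, the catalytic subunit of the mainly lagging-strand polymerase delta, was at 20.0, 20.4 and 21.1 RPKM and 12.8, 14.3 and 13.8 RPKM (log2 fold change -0.56, adjusted p = 0.000329). Pole, its counterpart in the mainly leading-strand polymerase epsilon, was at 6.09, 5.76 and 7.32 RPKM and 4.13, 4.52 and 4.59 RPKM (log2 fold change -0.44, adjusted p = 0.00829). The accessory subunits of the alpha-primase complex were not called. Prim2 was at 20.0, 19.4 and 19.3 RPKM and 16.7, 18.4 and 18.2 RPKM (log2 fold change -0.13, adjusted p = 0.133), lower in each siRNA library, and Pola2 at 13.7, 13.1 and 10.9 RPKM and 9.62, 11.1 and 11.3 RPKM (log2 fold change -0.21, adjusted p = 0.133), with overlap. Pola2 passed the test only without control replicate 3 (adjusted p = 0.0238).

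In the clamp and clamp loader, 4 of 6 genes were lower, the median change was -0.28 in log2 units, and the clamp itself was not called. Pcna (ENSMUSG00000027342.14, chr2:132249162-132253314, minus strand), the ring that holds polymerases on DNA and a common proliferation marker, was the most abundant member. It was at 213, 218 and 173 RPKM in control and 200.3, 199 and 177 RPKM in siRNA libraries, with the groups overlapping (log2 fold change -0.06, 95% interval -0.29 to 0.17, adjusted p = 0.637). Pcna has 2 named pseudogenes in the annotation, and how reads matching several places were counted is not given in the sources used here. Of the loader subunits, Rfc3 was at 28.2, 22.5 and 19.5 RPKM and 14.2, 15.6 and 16.7 RPKM (log2 fold change -0.55 ± 0.13 SE, adjusted p = 0.00829), with the widest control range of the called members relative to its mean. Rfc5 (log2 fold change -0.39, adjusted p = 0.0276), Rfc4 (-0.28, adjusted p = 0.0356) and Rfc1 (-0.28, adjusted p = 0.0384), the large subunit, were also lower with no overlap between groups. These last 3 calls were lost under quantile normalization and under median ratio scaling (adjusted p between 0.0796 and 0.268), but not when each library was scaled to the same sum, and without control replicate 2, siRNA replicate 1 or siRNA replicate 2 (0.0511 to 0.139). They were also lost without control replicate 1 for Rfc5, without control replicate 3 for Rfc1 and Rfc4, and without siRNA replicate 3 for Rfc4 and Rfc5 (0.068 to 0.1). Rfc2 was at 43.2, 41.6 and 32.8 RPKM and 40.8, 38.1 and 36.0 RPKM (log2 fold change -0.03, 95% interval -0.27 to 0.21, adjusted p = 0.856), with each siRNA value inside the control range.

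Replication protein A has 3 subunits that act as 1 complex on single-stranded DNA. Rpa2 was at 29.8, 26.1 and 23.7 RPKM in control and 19.0, 20.7 and 18.8 RPKM in siRNA libraries (log2 fold change -0.42, adjusted p = 0.00556). The small subunit Rpa3 was at 9.60, 9.98 and 10.9 RPKM and 6.38, 7.85 and 5.87 RPKM (log2 fold change -0.54, adjusted p = 0.00435). The groups did not overlap in these 2 genes. The large subunit Rpa1, the most abundant of the 3, was at 49.3, 45.1 and 42.8 RPKM and 39.2, 44.6 and 40.5 RPKM and overlapped (log2 fold change -0.14, 95% interval -0.31 to 0.04, adjusted p = 0.172). It passed the test only when each library was scaled to the same sum (adjusted p = 0.0423).

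Both genes of Okazaki fragment maturation were lower. Fen1, the flap nuclease that removes the RNA primer end, was at 35.5, 34.96 and 31.9 RPKM and 26.6, 29.4 and 26.0 RPKM (log2 fold change -0.31, adjusted p = 0.00881). Lig1, the ligase that seals the fragments, was at 36.9, 35.8 and 34.7 RPKM and 30.9, 31.4 and 29.1 RPKM (log2 fold change -0.22, adjusted p = 0.0162). The falls were 19.9% and 14.8% of the control means, with no overlap. Of Fen1's annotated exon bases, 84.2% are shared with genes on the opposite strand, mostly Gm10143. The call of Lig1 was lost with median ratio scaling (adjusted p = 0.146), under quantile normalization (0.153) and without control replicate 2 or siRNA replicate 3 (0.0562 and 0.0582), and that of Fen1 with quantile normalization (0.0506).

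Of the 5 genes of nucleotide supply, Dut, Rrm1 and Rrm2 were lower and Tyms and Tk1 were not called. Dut, the dUTPase that keeps uracil out of DNA, was at 15.1, 13.5 and 14.5 RPKM in control and 10.0, 11.3 and 10.4 RPKM in siRNA libraries (log2 fold change -0.41 ± 0.077 SE, adjusted p = 0.00325). Rrm1, the large subunit of ribonucleotide reductase, was at 51.2, 52.0 and 49.5 RPKM and 40.0, 44.9 and 40.0 RPKM (log2 fold change -0.29, adjusted p = 0.00826), and the small subunit Rrm2 was at 38.5, 37.9 and 36.7 RPKM and 30.7, 33.5 and 34.2 RPKM (log2 fold change -0.20, adjusted p = 0.0343). The 2 subunits of the enzyme that makes deoxyribonucleotides fell by 18.2% and 13.0%. Rrm1 missed the threshold with median ratio scaling (adjusted p = 0.0534), and Rrm2 did so with median ratio scaling and quantile normalization (0.207 and 0.301), though not with scaling to the same sum (0.0177), and without control replicate 1, control replicate 2, siRNA replicate 1 or siRNA replicate 2 (0.0777 to 0.136). Tyms, which makes thymidylate and has a named pseudogene, was at 4.18, 3.99 and 3.31 RPKM and 2.57, 3.36 and 3.19 RPKM (log2 fold change -0.26, adjusted p = 0.0986), and it passed the test without control replicate 3 (adjusted p = 0.0419). Tk1, the thymidine salvage kinase of S phase, was at 25.2, 22.3 and 18.7 RPKM and 22.5, 26.6 and 20.6 RPKM (log2 fold change 0.07, 95% interval -0.21 to 0.36, adjusted p = 0.655). The sign for Tk1 turned without control replicate 3 or without siRNA replicate 2, to -0.04 and -0.02.

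In chromatin assembly, Chaf1a, the large subunit of CAF-1, was at 16.5, 16.2 and 16.4 RPKM in control and 11.5, 12.6 and 12.8 RPKM in siRNA libraries (log2 fold change -0.39, adjusted p = 0.00225). Its control libraries were the most alike of the members, with a coefficient of variation of 0.809%, and 52.5% of its annotated exon bases are shared with Ubxn6 on the opposite strand. Chaf1b was at 19.2, 18.3 and 15.9 RPKM and 18.5, 17.4 and 15.6 RPKM, with overlap (log2 fold change -0.05, 95% interval -0.26 to 0.16, adjusted p = 0.676).

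The proportions of subunits within a complex were compared as a description. RPKM is per length, so each subunit's level can be given as a percentage of the summed RPKM of its complex in the same library, a measure that does not move when all values of a library are multiplied by 1 factor. Of the 26 shares in 7 complexes, 15 did not overlap between groups and 11 did. As a background, of the 13266 genes tested, 4759 lay wholly lower and 2627 wholly higher in siRNA libraries, by level and not by share. In a complex of 2 genes the shares mirror each other, so that 1 difference is counted 2 times. Of the GINS sum, Gins4 took 33.9% ± 0.167 in control and 40.5% ± 0.460 in siRNA libraries (SD, n = 3 for these shares), and Gins2 took 43.0% ± 2.62 and 37.0% ± 1.30. Of the replication factor C sum, Rfc2 took 36.1% ± 2.10 and 42.6% ± 2.12, and Rfc3 21.5% ± 2.20 and 17.2% ± 1.61. In these 4 subunits the shares in the 2 groups did not overlap. Within replication protein A the share of Rpa1 went from 55.5% ± 0.209 to 61.3% ± 0.715. Within the alpha-primase complex, Prim2 went from 33.4% ± 0.648 to 39.4% ± 0.774 while Prim1 went from 27.4% ± 0.683 to 22.9% ± 1.11 and Pola1 from 17.9% ± 2.63 to 14.1% ± 0.409. Gins4, Rfc2, Rpa1 and Prim2, which gained share, were among the members not called lower. Of the MCM2-7 sum, Mcm5 took 14.4% ± 0.960 and 17.0% ± 0.475, and Mcm3, which was called lower, went from 17.6% ± 0.478 to 18.7% ± 0.153, whereas Mcm6 went from 37.7% ± 0.698 to 35.2% ± 0.448. Chaf1b took 52.0% ± 2.41 and 58.2% ± 3.33 of the sum of the 2 CAF-1 genes. The shares of Rrm1 and Rrm2 overlapped between groups (57.5% ± 0.397 and 56.0% ± 1.79 for Rrm1). Shares within a complex are tied to each other and were not tested, and an exact permutation test of 3 against 3 libraries cannot give a two-sided p under 0.1.

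**Figure D3:**
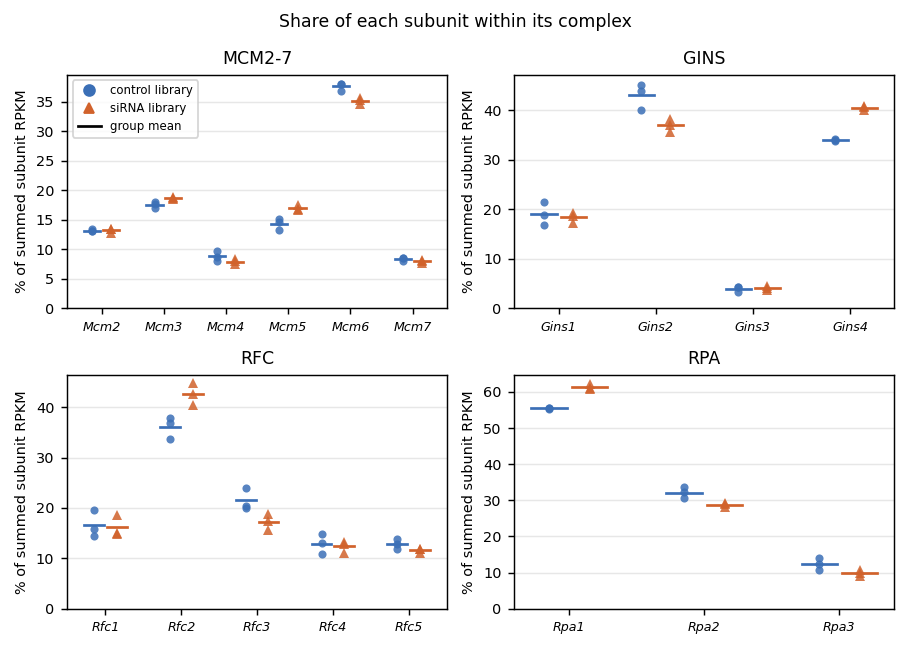
Share of each subunit in the summed RPKM of its complex, in percent, for MCM2-7, GINS, replication factor C (RFC) and replication protein A (RPA), with 1 circle per control library, 1 triangle per siRNA library and bars at the group means. Mcm5, Gins4, Rfc2 and Rpa1 take a larger share in each siRNA library than in any control library.

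The summed levels of the complexes fell by different amounts. The MCM2-7 sum was 262 to 298 RPKM in control and 213 to 229 RPKM in siRNA libraries, and its mean fell by 21.7%. The alpha-primase sum fell by 23.1%, from 58.6 ± 1.33 to 45.1 ± 2.42 RPKM (SD, n = 3). The sum of replication factor C fell by 17.0%, from 108.3 ± 10.1 to 89.8 ± 1.14 RPKM. For replication protein A it went from 82.5 ± 5.73 to 67.6 ± 4.77 RPKM, and for ribonucleotide reductase it fell by 16.0%, from 88.6 ± 2.14 to 74.4 ± 3.88 RPKM. The sum of the 2 CAF-1 genes fell by 14.0%, and that of GINS went from 84.7 ± 7.35 to 76.4 ± 3.41 RPKM. In 6 of the 7 complexes the siRNA sums did not overlap with the control sums, and in GINS they did. Of single genes tested, 35.9% had every siRNA library below every control library. The sum over the 41 members was 1255, 1213 and 1109 RPKM in control replicates 1 to 3 and 976, 1029.5 and 960.3 RPKM in siRNA replicates 1 to 3.

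Within the groups the libraries were ordered alike in many members, though not in all. Control replicate 3 was the lowest of its group in 27 of the 41 genes and the highest in 9, and control replicate 1 was the highest in 26. Among siRNA libraries, replicate 1 was the lowest in 23 genes and replicate 2 the highest in 24, while replicate 3 was the lowest in 15 and the highest in 11. The order was not counted over all genes, so it may not be particular to the members. Control replicate 3 also had the highest sum of the stromal markers in its group (1501 RPKM, against 1043 and 972 RPKM). Without it, 28 members were called lower, 26 of them among the 28 called with all libraries and the others being Pola2 and Tyms. The coefficient of variation between libraries of a group had a median of 7.28% in control (0.809% to 18.8%) and of 6.21% in siRNA libraries (2.45% to 15.3%).

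RefSeq promoters (GRCm38.p6, 250 bases before to 50 bases after the transcription start) were given for 34 of the 41 members and searched on both strands for 4 E2F-type words, TTTCCCGC, TTTGGCGC, TTTCGCGC and TTTGCCGC, of which the second and the third can overlap as reverse complements at a shared GCGC. At least 1 of them stood in 12 of the 34 members (35.3%), beside 704 of the 27025 genes with a promoter (2.6%). The 12 were Mcm3, Mcm5, Mcm6, Mcm7, Orc1, Cdc6, Cdt1, Gins3, Pola1, Pold1, Rfc3 and Lig1. Of these, 10 were called lower, their median change was -0.42 in log2 units, and the exceptions were Mcm5 and Gins3. Of the 22 members with a promoter and no match, 15 were called lower, with a median of -0.30. A match is a description of the letters, not a bound site.

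The 150 bases upstream of the start are shown for the 2 members with the largest falls in the fit of all libraries, with matches in capitals. Pola1 holds 1 match and Orc6 none in this stretch.
Pola1 (chrX:93632156-93632305, minus strand): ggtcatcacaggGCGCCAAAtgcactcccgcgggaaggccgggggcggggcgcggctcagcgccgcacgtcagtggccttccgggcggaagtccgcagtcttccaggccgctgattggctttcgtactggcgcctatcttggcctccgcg
Orc6 (chr8:85299482-85299631, plus strand): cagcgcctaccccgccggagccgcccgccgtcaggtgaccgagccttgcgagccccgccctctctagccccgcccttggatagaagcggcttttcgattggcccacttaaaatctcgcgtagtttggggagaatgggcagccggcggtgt
One match upstream of the RefSeq start is shown with 12 bases on either side for Mcm6, the most abundant helicase gene, Cdc6 and Mcm7, which fell. The same is shown for Mcm5 and Gins3, which were not called, since the same words stand in promoters of genes that fell and of genes that did not pass the test. In Cdc6, Mcm7 and Gins3 the stretch lies inside the gene by the GENCODE positions, whose outermost starts are 98907801, 138172422 and 95633453.
Mcm6 (chr1:128359796-128359827, minus strand): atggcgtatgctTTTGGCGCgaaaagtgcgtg
Cdc6 (chr11:98908001-98908032, plus strand): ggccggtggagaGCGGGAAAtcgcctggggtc
Mcm7 (chr5:138172029-138172060, minus strand): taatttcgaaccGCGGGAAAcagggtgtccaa
Mcm5 (chr8:75109344-75109375, plus strand): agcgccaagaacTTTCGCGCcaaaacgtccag
Gins3 (chr8:95633506-95633537, plus strand): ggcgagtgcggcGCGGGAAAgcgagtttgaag
In Mcm6 and Mcm5 a further match on the other strand overlaps the one in capitals, and Mcm6 holds another TTTGGCGC nearer to the start that is not shown.

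The rest of the pathway was described by a list of 60 other replication and nucleotide genes, of which 30 were lower (50%, beside 29.8% of all genes) and 2 higher (3.33%, beside 14.7%). Their median change was -0.24 in log2 units, and the 3 lowest p-values among the lower ones belonged to genes of nucleotide and folate metabolism. Samhd1, which breaks down dNTPs outside S phase, was at 107, 112 and 112 RPKM in control and 50.6, 53.4 and 53.1 RPKM in siRNA libraries (log2 fold change -1.06, adjusted p = 5.62e-06). Dck, the deoxycytidine salvage kinase, was at 44.2, 46.8 and 46.6 RPKM and 16.7, 20.0 and 18.4 RPKM (log2 fold change -1.28, adjusted p = 9.66e-06). Mthfd2, of mitochondrial one-carbon metabolism, was at 42.9, 42.5 and 40.1 RPKM and 17.0, 22.01 and 20.5 RPKM (log2 fold change -1.04, adjusted p = 6.76e-05). With the deposited scaling these 3 genes more than halved, which no member of the 41 did. Under median ratio scaling and quantile normalization the log2 fold changes were -0.96 and -0.98 for Samhd1 and -0.95 and -0.93 for Mthfd2, and that of Mthfd2 was -0.94 without siRNA replicate 1. Rnaseh2c, a subunit of the nuclease that removes ribonucleotides from DNA, rose from 44.4, 38.1 and 28.4 to 61.7, 57.5 and 51.2 RPKM (log2 fold change 0.62, adjusted p = 0.00975), and Tk2, the mitochondrial thymidine kinase, from 16.0, 15.9 and 14.7 to 17.7, 19.7 and 19.2 RPKM (log2 fold change 0.26, adjusted p = 0.0167). The call of Rnaseh2c was lost with gene-wise variance (adjusted p = 0.0811) and without the filter on low values (0.154). The call of Tk2 was lost without the filter (adjusted p = 0.0547), when each library was scaled to the same sum (adjusted p = 0.0561) and without siRNA replicate 2 (0.0745). The count of genes lower on this list was 18 under quantile normalization and 16 without the filter on low values. The count of genes higher was 6 under median ratio scaling, 8 under quantile normalization, 5 when the replicate numbers were a block, 1 with scaling to the same sum and 4 without control replicate 1.

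Of 26 regulators of S phase, 11 were lower (42.3%, beside 29.8% of all genes) and 4 higher (15.4%, beside 14.7%), with a median of -0.27 in log2 units. Hells, a chromatin remodeller, was at 12.8, 14.2 and 14.8 RPKM in control and 7.04, 6.65 and 8.86 RPKM in siRNA libraries (log2 fold change -0.82, adjusted p = 0.000562). The growth regulator Myc was at 26.4, 25.7 and 26.7 RPKM and 10.3, 14.0 and 15.5 RPKM (log2 fold change -0.95, adjusted p = 0.000588), and Rbl1, the pocket protein p107, at 19.8, 20.4 and 21.4 RPKM and 14.2, 15.8 and 15.3 RPKM (log2 fold change -0.42, adjusted p = 0.00157). The related pocket protein Rbl2 (p130), found in quiescent cells, moved the other way, from 9.73, 9.94 and 9.85 to 12.8, 13.2 and 14.3 RPKM (log2 fold change 0.41, adjusted p = 0.00203). Tfdp1, the partner of E2F factors, rose by 0.24 (adjusted p = 0.0193) and E2f2 by 0.27 (adjusted p = 0.0294), whereas E2f1, the activator most tied to S phase entry, was at 24.7, 22.3 and 21.5 RPKM and 18.2, 21.0 and 19.0 RPKM, just past the threshold (log2 fold change -0.22, adjusted p = 0.0492). The call of Tfdp1 was lost without control replicate 1 or siRNA replicate 2, that of E2f2 without any 1 library but control replicate 1 or siRNA replicate 3, and that of E2f1 without any 1 library but control replicate 3 or siRNA replicate 2 (adjusted p between 0.0542 and 0.165). With libraries scaled to the same sum the calls of Tfdp1 and E2f2 were lost (0.101 and 0.0978), and that of E2f1 was lost with median ratio scaling (0.226), quantile normalization (0.328), gene-wise variance (0.104), eBayes without trend (0.0597), a pseudocount of 0.01 (0.0506) and no filter on low values (0.207). The count of regulators lower fell to 7 without control replicate 2 or siRNA replicate 2, and to 6 under median ratio scaling and 5 under quantile normalization. The count of those higher fell to 2 without control replicate 1, control replicate 2 or siRNA replicate 1, and to 1 without siRNA replicate 2 or with scaling to the same sum.

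Proliferation markers of G2 and mitosis did not share this direction. Of 20, 6 were higher (30.0%, beside 14.7% of all genes) and none lower by limma, beside 29.8% of all genes (1 lower at an unadjusted p under 0.05), and the median change was 0.10 in log2 units. The other 14 were not called, and of the 20 log2 fold changes 13 were above 0 and 7 below. Ccnb2, a mitotic cyclin, was at 15.3, 13.8 and 14.4 RPKM in control and 31.3, 30.9 and 27.5 RPKM in siRNA libraries (log2 fold change 0.99, adjusted p = 3.08e-05). Kif20a, a kinesin of cytokinesis, was at 11.6, 11.4 and 12.6 RPKM and 15.0, 16.1 and 16.2 RPKM (log2 fold change 0.39, adjusted p = 0.00311), and Cdc20, an activator of the anaphase-promoting complex, at 10.2, 11.1 and 11.6 RPKM and 14.0, 15.2 and 14.5 RPKM (log2 fold change 0.38, adjusted p = 0.00419). Every siRNA library lay above every control library in these 3 genes. Mki67, the antigen Ki-67 of cycling cells, was at 11.8, 13.6 and 20.0 RPKM and 22.4, 18.8 and 25.6 RPKM, overlapping between groups, with control replicate 3 above siRNA replicate 2 (log2 fold change 0.55, adjusted p = 0.0378). The call of Mki67 was lost with gene-wise variance (adjusted p = 0.162), without the filter on low values (0.336), with scaling to the same sum (0.0869) and without any 1 library but control replicate 3 or siRNA replicate 2 (0.0948 to 0.114). The count of markers higher fell to 3 without siRNA replicate 1, and 1 marker was called lower with the replicate numbers as a block. The median of this list lay 0.19 above the median of all genes with the deposited scaling and 0.20 above it with quantile normalization, whereas the members lay below it under both. The lists were measured in the same 6 libraries, and the difference between lists was not tested.

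**Figure D4:**
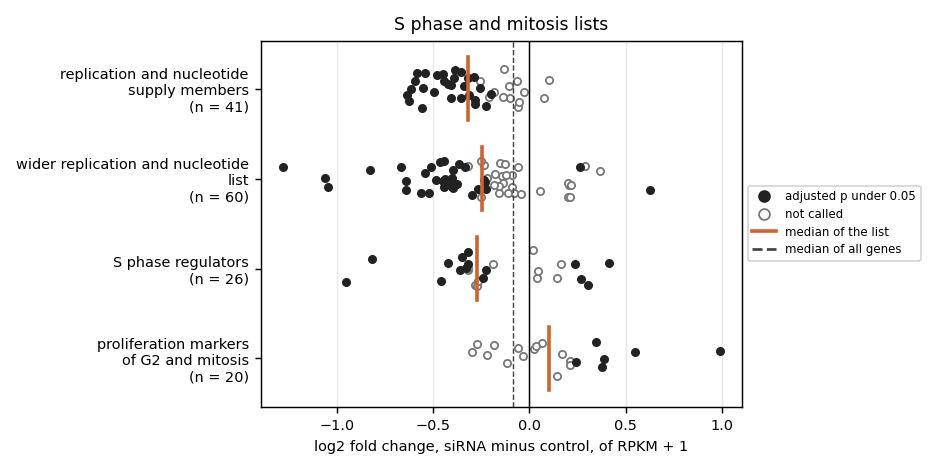
Log2 fold change (siRNA minus control, of RPKM + 1) of each gene of the 41 replication and nucleotide supply genes, the wider list (60), the S phase regulators (26) and the markers of G2 and mitosis (20), filled where the limma adjusted p was under 0.05, with a bar at the median of each list and a dashed line at the median of all genes (-0.09). The medians are -0.32, -0.24, -0.27 and 0.10.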

How the data were processed

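Total RNA libraries of 3 control and 3 Tet1/Tet2 siRNA samples were sequenced as paired-end reads. The authors trimmed adaptors, mapped reads to GRCm38 and estimated abundance with DNASTAR Lasergene, and deposited linear RPKM values (named FPKM in the methods) for 36915 rows. Which annotation was used, whether strand was used and how multiply matching reads were counted are not given in the sources used here. The deposited table also holds the authors' p-value of each row, which was not used.

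Of the rows of the 37 symbols listed more than once, the one of highest mean was used (no member was among them). The 13266 genes averaging 0.1 RPKM or more were tested two-sided on log2(RPKM + 1) with limma 3.58.1 in R 4.3.3 (lmFit, eBayes with trend), with Benjamini-Hochberg adjustment. Fold changes on this scale understate changes of low genes. On simulated libraries of the 13266 genes, the fit recovered 46 of 100 genes changed by 0.5 log2 units and 95 of 100 changed by 1, with 11 false calls. Far fewer genes changed there than the 3952 called lower and 1953 called higher in the real fit, which makes the adjusted threshold stricter in the simulation. Small changes can be missed, but the recovery there does not give the share of members missed here. The members, lists, tests and the naming rule were chosen with earlier results of these data known. Library by library values were given for called members whose groups did not overlap, up to 24 in order of p, other members were given by value or by count, and from each other list the 3 genes of lowest p in each direction were named, with Tet1, Tet2, E2f1 and Mki67.

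Replicate numbers are shared by the groups in the labels. Deviations from the group means correlated with r = 0.149, 0.117 and 0.462 for replicate numbers 1, 2 and 3, each over 0.1, so a fit with the number as a block was added. The pairing rests on these values alone, and control replicate 1 with siRNA replicate 2 reached 0.332 and control replicate 2 with siRNA replicate 1 reached 0.205. For control replicates 1 and 2 the highest correlation was thus with another number. With the block, 29 members were lower, the addition being Gins1 (adjusted p = 0.0493).

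The depth was estimated in Python 3.11.15 by finding, for genes with 1 transcript, the library size that brings low RPKM values nearest to whole reads (53.2% to 58.2% within 0.1 of a whole number, against medians of 17.4% to 19.1% over the depths tried). It is an estimate, so no count test was run. Counting errors cover counting only. Gene positions and exon overlaps are from GENCODE M21. Alternatives were pseudocounts of 0.1 and 0.01, no filter, a mean of at least 1 RPKM, scaling to the same sum, median ratio scaling, quantile normalization, eBayes without trend, gene-wise variance, the replicate block, summed duplicate rows and each library left out in turn.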

Additional observations from a re-analysis of the deposited data

How the results depend on the processing

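The 28 members called lower kept their direction in each of the 17 alternatives, and 11 of them kept the call in each. Only median ratio scaling, quantile normalization and scaling to the same sum could have turned a sign. In these 28 genes every siRNA library lay below every control library. Leaving out a library or changing the pseudocount could therefore not turn it, and the other alternatives left their fold changes unchanged. Leaving out each library in turn gave 20 to 28 members lower, 22 to 32 genes lower and 2 to 4 higher on the wider list, 7 to 15 S phase regulators lower and 1 to 4 higher, and 0 to 1 markers of G2 and mitosis lower and 3 to 7 higher, with a median over the members of -0.36 to -0.29. Without the filter on low values, with more genes tested, 13 members, 16 and 0 genes of the wider list (lower and higher) and 7 S phase regulators (lower) were called. Median ratio scaling gave a members' median of -0.23, 6 wider genes higher and 6 S phase regulators lower. Quantile normalization gave a median of -0.18, 18 members lower and 1 higher, 18 wider genes lower and 8 higher, and 5 S phase regulators lower. Scaling to the same sum gave a median of -0.40, 1 wider gene higher and 1 S phase regulator higher. Gene-wise variance left 1 wider gene higher, and eBayes without trend called 1 marker of G2 and mitosis lower. The fit with the replicate numbers as a block, which treats them as pairs, called 29 members lower, 5 wider genes higher and 1 marker of G2 and mitosis lower, and moved no other count by over 1.5 times. The median of all genes turned to 0.055 with quantile normalization. Members that were not called and turned sign were Mcm5 (0.0080 with quantile normalization), Cdc45 (0.042 with quantile normalization), Gins3 (0.018 with median ratio scaling, 0.14 with quantile normalization), Pcna (0.035 with median ratio scaling), Rfc2 (0.070 and 0.079 with those scalings) and Chaf1b (0.042 and 0.085). Leaving out each library in turn gave -0.14 to 0.037 for Gins3, -0.15 to 0.047 for Rfc2, -0.035 to 0.17 for Tk1 and -0.13 to 0.011 for Chaf1b. The cause of these changes was not tested.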
